A study of Mus musculus with 10 samples.

Results

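The genes of MHC class II antigen presentation were examined in inguinal white adipose tissue (iWAT), the subcutaneous fat depot of the groin, of male mice. The members were chosen by name: H2-Aa, H2-Ab1, H2-Eb1, H2-DMa, H2-DMb1, H2-Oa, Cd74, Ciita and Cd86, which are 9 of the 51826 genes listed in each library. All 9 passed the filter on low counts in every comparison. RNA-seq of whole iWAT gave 1 library per mouse, 10 in all. The offspring (F1) were 5 weeks old: 3 had fathers fed a control diet (CD) and 3 had fathers fed a low-protein diet (LPD), the latter called pLPD offspring. All F1 mice ate the CD themselves, and by the study's methods the mothers ate the CD too and the 3 mice of a group had different mothers. The F0 mice were 10 to 12 weeks old and ate either the CD (2 mice) or the LPD (2 mice) after weaning. All mice were wild-type C57BL/6 males with no transgene or other treatment.

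MHC class II molecules are surface proteins that show peptides from engulfed material to CD4+ T cells. They are made mainly by B cells, dendritic cells and macrophages, and an α chain and a β chain (H2-Aa with H2-Ab1, or an E α chain with H2-Eb1) meet the invariant chain Cd74 in the endoplasmic reticulum. In endosomes proteases trim Cd74 down to a short fragment, which H2-DM (H2-DMa with H2-DMb1) exchanges for a peptide, while H2-DO (H2-Oa with H2-Ob) restrains H2-DM, mainly in B cells. Ciita is the coactivator that turns these genes on at a shared promoter module, and Cd86 is a costimulatory ligand for CD28 on T cells. Fat tissue holds macrophages and lymphocytes among its adipocytes, and the inguinal fat pad surrounds a lymph node, so several cell types could supply these transcripts.

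Per the files, on the mm10 build, 6 of the members lie on chromosome 17 in the MHC. H2-Oa was listed at chr17:34092340-34095234, H2-DMa at chr17:34135182-34139101, H2-DMb1 at chr17:34153072-34160230, H2-Ab1 at chr17:34263209-34269418 and H2-Eb1 at chr17:34305877-34316199, all on the plus strand. H2-Aa was listed on the minus strand at chr17:34282744-34287827. Ciita and Cd86 lie on chromosome 16, Ciita at chr16:10488178-10527564 on the plus strand and Cd86 at chr16:36603869-36666081 on the minus strand. The values below are reads on the annotated exons of these genes.

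RefSeq promoter windows of the GRCm38.p6 build, from 250 bases before to 50 bases after a start site, were found for 5 of the 9 members (H2-Aa, H2-Eb1, H2-DMa, H2-DMb1 and H2-Oa). The stretches below are shown because they carry the Y box, the reversed CCAAT element of the class II promoter module, for the 3 members whose RefSeq start lay within 100 bases of the start in the files. They are followed by H2-Ob, the partner of H2-Oa, which is not a member. Each stretch is 62 bases of the gene's own strand, 5′ to 3′. The capitals TGATTGG mark the Y box letters, and in H2-Eb1 the capitals AGCAACTGATG also mark a match to the X box, the element bound by the RFX complex.
H2-Aa, chr17:34287862-34287923, minus strand: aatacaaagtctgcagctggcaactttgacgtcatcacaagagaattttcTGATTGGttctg
H2-Eb1, chr17:34305756-34305817, plus strand: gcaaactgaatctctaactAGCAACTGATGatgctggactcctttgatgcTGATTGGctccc
H2-Oa, chr17:34092284-34092345, plus strand: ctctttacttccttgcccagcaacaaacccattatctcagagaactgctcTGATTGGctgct
H2-Ob, chr17:34238796-34238857, plus strand: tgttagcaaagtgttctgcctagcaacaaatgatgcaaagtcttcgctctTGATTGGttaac

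The letters TGATTGG began 50 bases before the start site in H2-Aa, 61 in H2-Eb1, 45 in H2-Oa and 59 in H2-Ob. The window of H2-DMb1 also held them, 63 bases before the start site. These 7 letters were chosen after the sequences were seen, and on either strand 7.80% of the 32817 RefSeq windows of the same length held them. The longer form CTGATTGG, which contains the shorter one, was in the windows of H2-Aa, H2-Eb1 and H2-Oa and in 4.09% of all windows. The X box pattern, searched on both strands with wildcard positions, matched in H2-Eb1, H2-DMb1 and H2-Oa, beginning 92, 95 and 141 bases before the start site, against 0.969% of all windows. Aligned without gaps at the Y box, the 62 bases of H2-Aa and H2-Oa were the same at 45.2% of positions and those of H2-Aa and H2-Eb1 at 27.4%. These matches describe letters in a window, and no binding was measured.

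Exon reads per library ran from 6351075 to 10044546. The smallest quantity readable at this depth, 3 reads, was 0.299 to 0.472 exon reads per 1000000 (CPM), and the members lay well above it. Adipocyte genes were plain in every library: Fabp4, a fatty acid carrier, was at 4655 to 7607 CPM and Plin1, a lipid droplet coat protein, at 1484 to 2242 CPM. The libraries differed in the share of reads in introns, which was 36.0% to 37.5% in the 3 offspring of CD fathers, 40.7% to 48.4% in the 3 pLPD offspring and 36.3% to 38.0% in the 4 F0 mice. The intron share thus separated the F1 groups without overlap, and its part in the F1 results was not tested beyond the fit with that share as a covariate given below. In bulk tissue, fewer cells of a type and less RNA per cell cannot be told apart.

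Levels of the members were compared with each other only as RPKM, exon reads per kilobase of exon per 1000000 mapped reads. Cd74 stood highest in every library, at 210 to 428 RPKM, which no other member reached. The chain genes came next over the 10 libraries, with 96.7 ± 15.9 RPKM for H2-Eb1, 73.3 ± 17.8 for H2-Aa and 52.2 ± 9.85 for H2-Ab1 (mean ± SD, n = 10). Their ranges over all libraries overlapped with the neighbor in the order, but within each group H2-Eb1 exceeded H2-Aa without overlap, and H2-Aa exceeded H2-Ab1 without overlap in all groups but the offspring of CD fathers.

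A wide gap separated the chains from the rest. Ciita was at 8.91 ± 1.16 RPKM, H2-DMa at 7.65 ± 1.84 and H2-DMb1 at 6.86 ± 1.18 (n = 10). The place of Ciita above H2-DMa and H2-DMb1 depends on reads that match several places. In offspring of CD fathers its unique reads were 35.0 CPM on 5254 exon bases. Those of H2-DMa were 26.0 CPM on 1641 bases and those of H2-DMb1 17.1 CPM on 1485 bases. H2-Oa followed at 4.49 ± 1.33 and Cd86 was lowest at 2.42 ± 0.513 RPKM (n = 10). Neighbors in this lower part of the order overlapped, and H2-DMa and H2-DMb1 changed places in the pLPD offspring. An α chain partner of H2-Eb1 was present in the files only as the pseudogene H2-Ea-ps, which had 3 reads or fewer in every library.

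**Figure D1:**
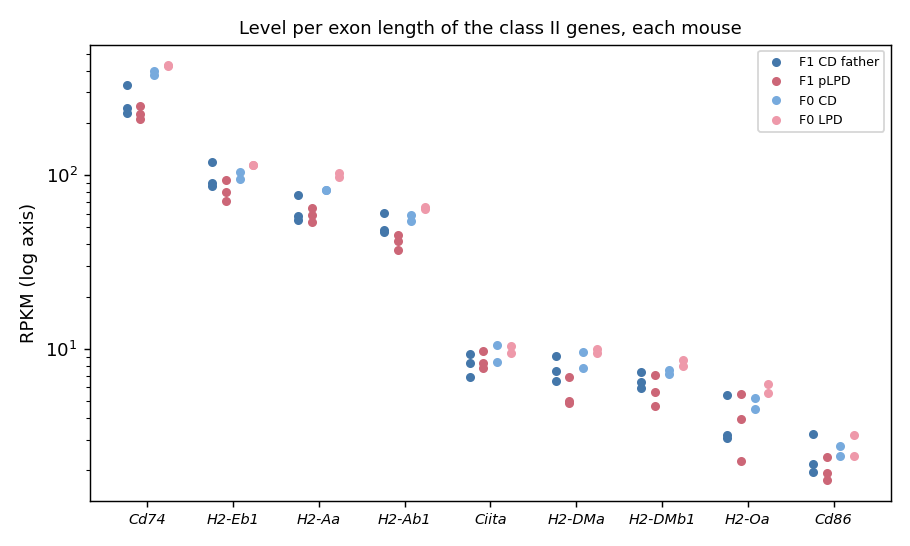
Level of each class II gene in RPKM on a log axis; each point is 1 mouse, colored by group. Cd74 lies highest at 210 to 428 RPKM, the chain genes lie between 37.0 and 118 RPKM, and the remaining members lie at 10.5 RPKM or lower.

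The first comparison asked whether the father's diet went with a difference in the class II genes of offspring iWAT. No member was up- or down-regulated in pLPD offspring: 0 of 9 passed an adjusted p of 0.05 in edgeR's quasi-likelihood test, where 1.17% of the 14049 genes tested did. At an unadjusted p under 0.05 the count was also 0 of 9, against 15.3% of all genes, and DESeq2 called 0 of 9. The log2 fold changes ran from -0.29 (H2-DMa) to 0.23 (Ciita), with a median of -0.06 beside 0.01 over all genes. In all 9 members the values of the 3 pLPD offspring overlapped those of the 3 offspring of CD fathers, whereas 20.1% of all genes did not overlap.

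The invariant chain Cd74 was at 738, 663 and 932 CPM in the 3 offspring of CD fathers and at 797, 762 and 667 CPM in the 3 pLPD offspring. The α chain H2-Aa was at 223, 226 and 288 CPM and at 281, 263 and 227 CPM in the same order. Offspring 3 of a CD father was the highest of the 6 mice in both genes. The other mice were interleaved in Cd74, whereas in H2-Aa the remaining offspring of CD fathers lay just below the lowest pLPD offspring. The log2 fold change of Cd74 was -0.06 ± 0.13 (SE, n = 3 and 3), with a 95% interval from -0.34 to 0.23, and that of H2-Aa was 0.07 ± 0.12, with an interval from -0.19 to 0.33.

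H2-Ab1 was at 170, 158 and 198 CPM in offspring of CD fathers and at 174, 159 and 136 CPM in pLPD offspring. H2-Eb1 was at 220, 220 and 281 CPM and at 238, 241 and 189 CPM. In both β chain genes the highest mouse was offspring 3 of a CD father and the lowest was pLPD offspring 3. Their log2 fold changes were -0.15 ± 0.11, with an interval from -0.40 to 0.09, and -0.10 ± 0.12, with an interval from -0.37 to 0.17. On the RPKM scale the ranges of H2-Ab1 did not overlap, at 46.8 to 60.2 RPKM with CD fathers and 37.0 to 45.1 RPKM with LPD fathers, but on that scale the median of all genes also moved, by -0.15 on the log2 scale.

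The peptide exchange factor H2-DMa was at 22.9, 25.4 and 29.8 CPM in offspring of CD fathers and at 20.8, 24.4 and 18.1 CPM in pLPD offspring. This was the lowest fold change of the members, -0.29 ± 0.15 with an interval from -0.62 to 0.04 (edgeR, adjusted p = 0.396). Its partner H2-DMb1 lay between 17.6 and 22.8 CPM in all 6 mice. H2-Oa was the most variable member, at 9.04, 8.33 and 14.4 CPM in offspring of CD fathers and at 13.0, 15.6 and 6.70 CPM in pLPD offspring, and both groups spanned most of the same range.

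Ciita was at 94.0, 75.1 and 99.1 CPM in offspring of CD fathers and at 111, 110 and 91.3 CPM in pLPD offspring. A pair of pLPD offspring lay above all 3 offspring of CD fathers and the third lay inside their range. The log2 fold change was 0.23 ± 0.12, with an interval from -0.03 to 0.49 (edgeR, adjusted p = 0.397). Cd86 lay between 15.4 and 18.9 CPM in 5 of the 6 mice and at 23.8 CPM in offspring 3 of a CD father.

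Offspring 3 of a CD father was the highest of the 6 F1 mice in 6 of the 9 members, and pLPD offspring 3 was the lowest in 4. Without the first of these mice, the fold changes of H2-Eb1, H2-DMb1, Cd74 and Cd86 turned from negative to positive, at 0.03, 0.03, 0.09 and 0.11. With the intron share of each library as a covariate, a fit chosen after seeing the data, 0 of 9 members passed and H2-Aa, H2-DMb1 and H2-Oa changed sign. For any gene alone, the smallest p of an exact permutation test is 0.1 with 3 mice against 3 and 0.333 with 2 against 2.

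**Figure D2:**
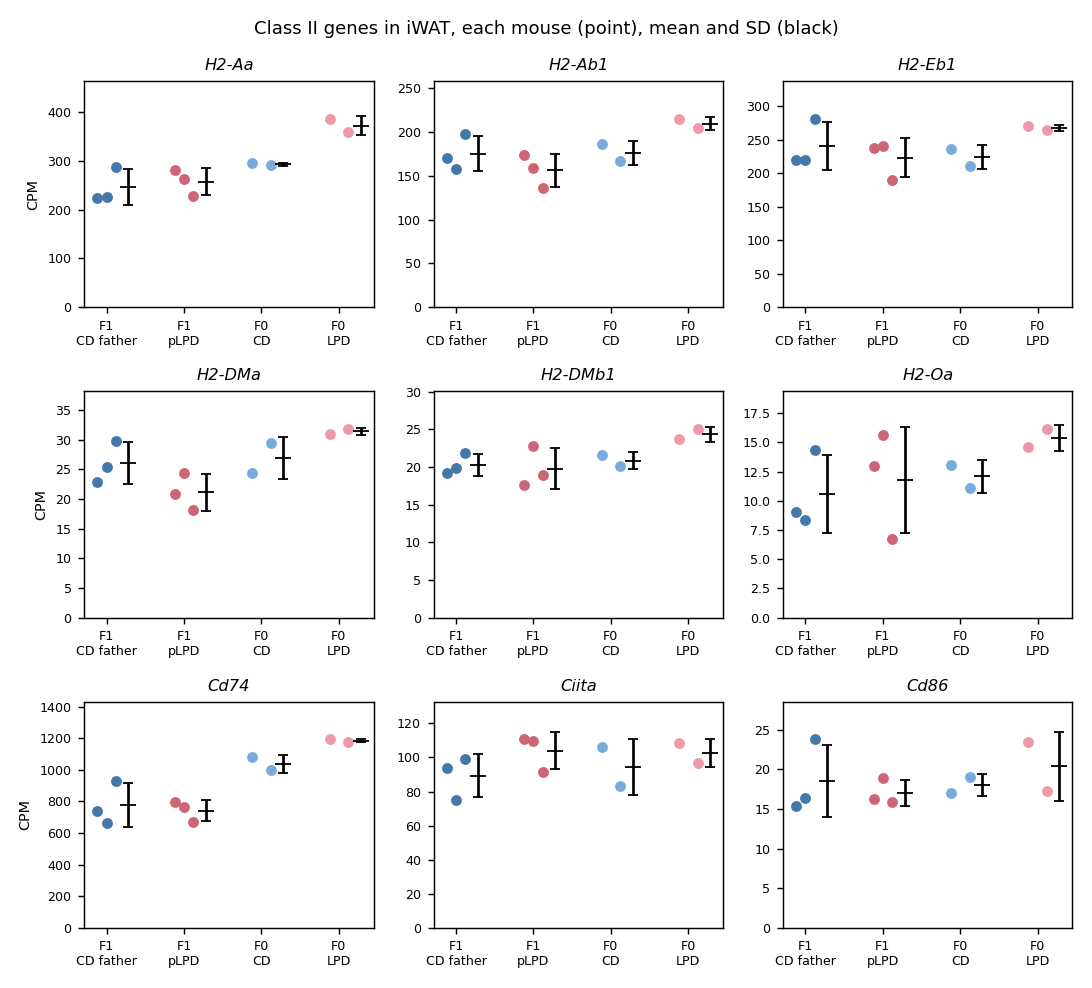
CPM of the 9 class II genes in each mouse; the 4 groups are on the horizontal axis, each point is 1 mouse, and the black bar gives the mean and SD of the group. In F1 the groups overlap in every panel, and in F0 both LPD-fed mice lie above both CD-fed mice in 7 of 9 panels.

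The second comparison asked whether the same genes differed between F0 males that ate the LPD and those that ate the CD. All 9 fold changes were positive, from 0.12 (Ciita) to 0.35 (H2-Oa) on the log2 scale, with a median of 0.22 beside 0.00 over the 14581 genes tested. No member passed the test: 0 of 9 were called by edgeR or by DESeq2, where edgeR called 2.50% of all genes. At an unadjusted p under 0.05, 3 of 9 members were higher (H2-Aa, H2-Ab1 and H2-Eb1), against 7.53% of all genes. In 7 of 9 members both LPD-fed mice lay above both CD-fed mice, which was so for 22.8% of all genes. The 9 genes were measured in the same 4 mice, so these counts are not 9 separate observations.

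H2-Aa was at 295 and 290 CPM in the CD-fed mice and at 386 and 358 CPM in the LPD-fed mice. The pairs were well apart, with a log2 fold change of 0.35 ± 0.10 (SE, n = 2 and 2) and a 95% interval from 0.12 to 0.57 (edgeR, adjusted p = 0.117). Of 9 alternative fits that kept all the F0 mice, H2-Aa passed in 2. These were the fit with no filter on low counts and the fit with replicate number as a block. They called 1343 and 1391 genes in all, against 364 in the main fit, and replicate numbers did not pair the mice.

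H2-Ab1 was at 186 and 167 CPM with the CD and at 215 and 204 CPM with the LPD. H2-Eb1 was at 236 and 211 CPM and at 270 and 264 CPM. In both β chain genes the LPD-fed mice were close to each other and above both CD-fed mice. Their fold changes were 0.25 ± 0.10, with an interval from 0.03 to 0.47 (edgeR, adjusted p = 0.247), and 0.26 ± 0.10, with an interval from 0.03 to 0.48 (edgeR, adjusted p = 0.242).

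Cd74 was at 1080 and 998 CPM in the CD-fed mice and at 1194 and 1177 CPM in the LPD-fed mice. Its fold change was 0.19 ± 0.12, with an interval from -0.08 to 0.47, so the mice were separated but the interval spanned 0. H2-DMa was at 24.4 and 29.5 CPM with the CD and at 31.0 and 31.8 CPM with the LPD, and H2-DMb1 at 21.6 and 20.1 CPM and at 23.6 and 25.0 CPM. Both subunits of the exchange factor thus had the LPD-fed mice on top, with fold changes of 0.22 ± 0.12 each.

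H2-Oa was at 13.1 and 11.1 CPM in the CD-fed mice and at 14.6 and 16.1 CPM in the LPD-fed mice, a fold change of 0.35 ± 0.16 with an interval from -0.01 to 0.71. H2-Ob, the other subunit of H2-DO, rose: it was at 47.4 and 41.1 CPM with the CD and at 64.7 and 62.6 CPM with the LPD, a fold change of 0.53 ± 0.10 (edgeR, adjusted p = 0.0313). The call of H2-Ob was lost with DESeq2 (adjusted p = 0.0642), on reads with introns, on RPKM, in the fit of all groups, and without CD-fed mouse 2 or either LPD-fed mouse (adjusted p from 0.0898 to 0.155).

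Ciita and Cd86 were the members whose F0 groups overlapped. Ciita was at 106 and 83.0 CPM with the CD and at 109 and 97.0 CPM with the LPD, and the fold change of 0.12 ± 0.12 turned to -0.04 without CD-fed mouse 2. Cd86 was at 17.0 and 19.0 CPM and at 23.4 and 17.3 CPM, and its fold change of 0.18 ± 0.17 turned to -0.06 without LPD-fed mouse 1. CD-fed mouse 2 was the lowest of the 4 mice in 7 of 9 members, and the highest value of every member belonged to an LPD-fed mouse.

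**Figure D3:**
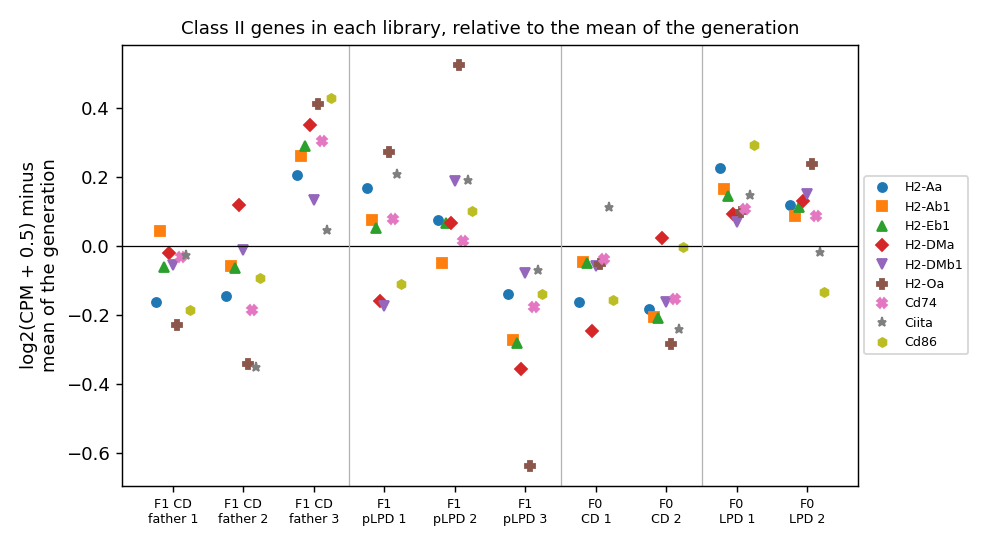
Each class II gene in each library, as log2(CPM + 0.5) minus the mean of the libraries of the same generation; each symbol is 1 gene and gray lines part the groups. Offspring 3 of a CD father lies above the F1 mean in every gene, pLPD offspring 3 lies below it in every gene, and the F0 genes lie mostly below 0 with the CD and above 0 with the LPD.

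The difference between the generations' diet effects was tested in a fit of all 10 libraries. The effect in F1 was lower than that in F0 in 8 of 9 members, Ciita being the exception, with differences from -0.52 to 0.10 on the log2 scale. No difference passed the test (0 of 9 by edgeR and by DESeq2, where edgeR called 1.25% of 15111 genes). At an unadjusted p under 0.05 there were 2 of 9, both lower in F1, against 7.58% of all genes lower: H2-DMa at -0.52 ± 0.21, with an interval from -0.97 to -0.06, and H2-Ab1 at -0.41 ± 0.17, with an interval from -0.77 to -0.06 (edgeR, adjusted p = 0.317 and 0.307). The diet effects in the fathers' generation and in the offspring were therefore not shown to differ in any member.

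**Figure D4:**
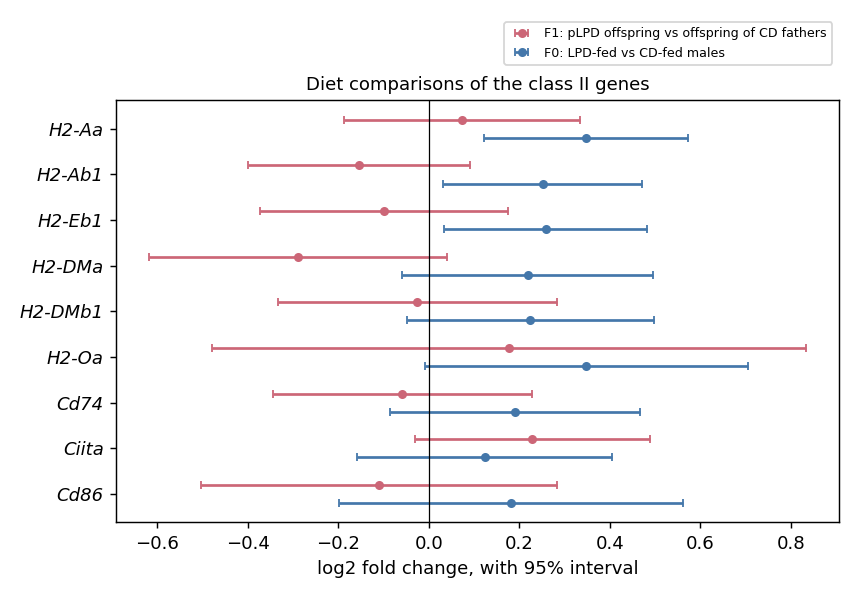
Log2 fold change of each class II gene with its 95% interval from edgeR, in F1 (pLPD offspring against offspring of CD fathers) and in F0 (LPD-fed against CD-fed males). All 9 F1 intervals include 0, and in F0 the intervals of H2-Aa, H2-Ab1 and H2-Eb1 lie above 0 although no member passed the adjusted threshold.

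On the CD alone, 1 of 9 members differed between the generations, where 8.78% of the 15111 genes tested were called lower in F1 and 18.9% were called in either direction. Cd74 was at 663 to 932 CPM in the 3 offspring of CD fathers and at 998 to 1080 CPM in the 2 CD-fed F0 mice. It was lower in F1 by a log2 fold change of -0.42 ± 0.13 (edgeR, adjusted p = 0.0448). Its adjusted p ranged from 0.00158 to 0.207 over the alternatives. The call was lost on all reads of the gene with introns, on RPKM, with the 5 control libraries alone, and in 7 of the 10 fits that left out 1 library: without either CD-fed F0 mouse, either LPD-fed F0 mouse, offspring 1 or 2 of a CD father, or pLPD offspring 2.

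H2-Aa was also lower in all 3 offspring of CD fathers than in both CD-fed F0 mice, at -0.25 ± 0.12, but it did not pass (edgeR, adjusted p = 0.169) except without offspring 3 of a CD father (-0.39, adjusted p = 0.0255). The other 7 members overlapped between the generations, where 49.9% of all genes did not, and had fold changes from -0.20 (H2-Oa) to 0.10 (H2-Eb1). Age, generation and set of libraries coincide, so they cannot be told apart.

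The proportions of the members within a library were then compared. These ratios were picked after the values were seen, and a ratio of RPKM within a library does not depend on its scaling. H2-Aa to H2-Ab1, the α and β chains of the same molecule, was 1.15 to 1.27 with CD fathers and 1.41 to 1.45 with LPD fathers. In F0 it was 1.38 to 1.52 with the CD and 1.53 to 1.57 with the LPD. The ratio was thus higher without overlap in the LPD group of each generation, with the smallest exact permutation p that these designs allow, 0.1 and 0.333 (0.4 and 1.0 when adjusted over the pairs of members).

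Over all 36 pairs of members, 9 ratios did not overlap between the F1 groups, where 19.5% of all gene pairs did not. In F0 8 of 36 did not, against 47.4% of all gene pairs, so separated ratios were no more common among the members than among genes at large there. Cd74 to H2-Eb1 was 2.53 to 2.96 in the 6 F1 mice and 3.71 to 3.97 in the 4 F0 mice (exact permutation test, two-sided p = 0.00476, 0.0571 when adjusted over the 36 pairs). Between the generations 7 of 36 ratios did not overlap, against 18.1% of all gene pairs.

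Not all exon reads of the members matched the genome uniquely. The share that did was 100% in 6 members, 77.6% to 87.3% in H2-DMb1, which has the near copy H2-DMb2, 46.5% to 69.4% in H2-Oa, and 35.5% to 44.6% in Ciita. The values of Ciita and H2-Oa are therefore less certain than those of the chains. On unique reads alone their mean levels in F0 were higher with the LPD by 0.13 and 0.44 on the log2 scale, and in F1 pLPD offspring differed by 0.20 and 0.11, with 0 of 9 members called in either generation.

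Introns gave a second reading of the same genes. In F1 the mean intron level of H2-Aa was higher in pLPD offspring by 0.36 on the log2 scale while its exon level differed by 0.06, and that of H2-Eb1 was higher by 0.29 while its exon level differed by -0.11. In H2-DMa introns and exons differed in sign, at 0.40 and -0.30, on 19 to 40 intron reads per F1 library. In all, the mean intron level was higher in pLPD offspring in 7 of 9 members and lower in H2-Oa (-0.19, with exons at 0.15) and H2-DMb1 (-0.07). Introns and exons also differed in sign in H2-Ab1, Cd74 and Cd86. Intron CPM were scaled by the exon reads of each library. The intron share of reads at large was 40.7% to 48.4% in pLPD offspring and 36.0% to 37.5% with CD fathers. Higher intron CPM in a member are therefore not set apart from genes at large. In F0, where the intron shares overlapped, the mean intron levels of all 9 members were higher with the LPD, from 0.06 (H2-Ab1) to 0.46 (H2-Oa). The mice of the F0 groups overlapped in intron CPM in H2-Ab1, H2-Eb1, H2-DMb1, Cd74 and Cd86. H2-Eb1, for example, was at 73.1 and 58.9 with the CD and at 72.9 and 73.1 with the LPD. Intron levels alone were not tested in either generation, and the share of all genes with higher intron levels was not counted.

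The rest of the pathway was followed by lists. Of the 3 other class II genes that passed the filter, 0 changed in F1 and 1, H2-Ob, rose in F0, against 1.18% of all genes. There H2-DMb2 and H2-Eb2 had fold changes of 0.31 and 0.42 that did not pass. None of 7 factors of the class II promoter module was called in either generation. Creb1, which binds beside RFX at these promoters, differed by 0.15 in F1 and 0.06 in F0, and Nfya, a subunit of the Y box factor, by -0.13 and -0.01.

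Of 7 lysosomal processing genes, 1 fell in F1, against 1.02% of all genes. This gene, the protease cathepsin D (Ctsd), was at 1717, 1714 and 1231 CPM in offspring of CD fathers and at 971, 957 and 1071 CPM in pLPD offspring, a fold change of -0.63 ± 0.13 (edgeR, adjusted p = 0.0489). All 7 fold changes of this list were negative in F1 and positive in F0, where 0 of 7 passed. Over all genes, 51.4% of fold changes were positive in F1 and 50.1% in F0. In the test of the difference between the generations' diet effects 0 of the 7 were called (edgeR, smallest adjusted p = 0.0684). The call of Ctsd was lost on all reads of the gene with introns, on RPKM, with the intron share as covariate, and without any 1 mouse other than offspring 3 of a CD father (adjusted p from 0.0685 to 0.223). The covariate fit took calls over all genes from 164 to 11.

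Of 7 genes of costimulation and class II turnover, 0 were called in F1 and in F0, where 6 passed the filter. Icosl, a ligand of the T cell receptor ICOS, differed by 0.16 and -0.04 and March1, a ubiquitin ligase that sends class II and Cd86 to degradation, by 0.04 and 0.12. Over the 6 tested genes of this list in F0 the fold changes ran from -0.52 to 0.55, with 3 positive and 3 negative. Of 6 tested genes upstream of Ciita in interferon-γ signaling, 0 were called in both generations, and the kinase Jak1 differed by 0.06 and 0.00. The fold changes of these 6 genes in F0 ran from -0.27 to 0.42, with 4 positive and 2 negative. Interferon-γ itself (Ifng) had 3 reads or fewer in every library.

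The class I pathway, which shows peptides from inside the cell, was set beside the class II genes. Of 11 class I genes 0 were called in F1 and 0 in F0, as for the class II members. The heavy chain H2-D1 and the light chain B2m differed by -0.21 and -0.11 in F1 and by 0.16 and 0.22 in F0. On the CD, 5 of 11 were called higher in F1 than in F0, against 10.1% of the 15111 genes tested. Among them were H2-K1 at 0.61 ± 0.10 and Tap1, a subunit of the peptide transporter, at 0.67 ± 0.11 (edgeR, adjusted p = 0.00121 and 0.00131). Cd74 was lower in F1 here, whereas H2-Ob, H2-DMb2 and H2-Eb2 all had positive fold changes, and 1 of these 3 was called (edgeR, adjusted p = 0.0474). H2-Ob was at 58.3 to 63.3 CPM in offspring of CD fathers and at 41.1 to 47.3 CPM in CD-fed F0 mice.

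Among the cell types that make class II, the B cell markers lay higher with the LPD in F0, as did the members' summed level. The summed level of the 9 members was 1828 to 1979 CPM with the CD and 2191 to 2267 CPM with the LPD. The summed level of 8 B cell markers was 601 to 673 CPM and 822 to 840 CPM, and all 8 fold changes were positive, with a median of 0.34. Of these 8, 2 rose, against 1.18% of all genes. They were Ms4a1 (CD20), at 63.1 and 67.6 CPM with the CD and 92.9 and 87.5 CPM with the LPD (0.46 ± 0.09, edgeR, adjusted p = 0.0351), and the B cell adaptor Bank1, at 124 and 111 CPM and 167 and 170 CPM (0.52 ± 0.09, edgeR, adjusted p = 0.0266). The call of Ms4a1 was lost without any 1 of the 4 mice (adjusted p from 0.0797 to 0.123), and that of Bank1 without either CD-fed mouse or LPD-fed mouse 2 (0.0504 to 0.169). The part of B cell content in the class II values was not tested.

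The macrophage sum was lower with the LPD in F0. Over 8 genes it was 857 to 911 CPM with the CD and 748 to 765 CPM with the LPD, with 6 of 8 fold changes negative and those of Adgre1 and Cd68 at 0.05 and 0.04. Only the scavenger receptor Cd163, 1 of 8, fell (-0.47 ± 0.09, edgeR, adjusted p = 0.0358), against 1.32% of all genes. The call of Cd163 was lost without CD-fed mouse 2 or either LPD-fed mouse. The sums of 8 dendritic cell markers overlapped, at 162 to 170 CPM and 159 to 169 CPM, and 0 of 8 were called. The transcription factors Irf8 and Zbtb46, highest in CPM on this list, had fold changes of 0.04 and -0.11 in F0 and -0.06 and -0.15 in F1. T cell markers also overlapped, at 191 to 235 CPM and 179 to 239 CPM, with 0 of 8 called. The 10 lymph node genes summed to 558 to 600 CPM and 612 to 681 CPM, with 7 of 10 fold changes positive and 0 of 10 called.

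In F1 macrophage markers were lower in pLPD offspring. Their sum was 793 to 964 CPM with CD fathers and 508 to 653 CPM with LPD fathers, and all 8 fold changes were negative. Of the 8, 5 fell (Adgre1, Csf1r, Cd163, C1qa and C1qc, from -0.54 to -0.73), against 1.02% of all genes. All 5 calls were lost with the intron share as covariate, and without offspring 1 or 2 of a CD father or pLPD offspring 2. Calls over all genes also fell, from 164 to 11 with the covariate and to 18, 31 and 24 without these mice. The intron share separated the F1 groups, so the covariate fit cannot set it apart from the father's diet. Csf1r, the macrophage growth factor receptor, was at 181, 181 and 198 CPM in offspring of CD fathers and at 128, 122 and 135 CPM in pLPD offspring (-0.54 ± 0.08, edgeR, adjusted p = 0.0155). The 9 class II members summed to 1412 to 1888 CPM and 1370 to 1667 CPM in the same mice, so their level overlapped between groups whose macrophage markers did not.

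The B cell sum in F1 was 550 to 652 CPM with CD fathers and 539 to 774 CPM with LPD fathers, with all 8 fold changes positive and 0 of 8 called. The T cell list was also positive in 8 of 8, with sums of 244 to 292 CPM and 292 to 365 CPM that met at their edge and 0 of 8 called. At an unadjusted p under 0.05 in edgeR, 6 of 8 T cell markers and 1 of 8 B cell markers were higher. The share over all genes was 6.57%. The kinase Lck and the coreceptor Cd8a differed by 0.31 and 0.47 in F1 and by -0.12 and -0.07 in F0. The lymph node sum was 534 to 599 CPM and 612 to 669 CPM, without overlap, with 0 of the 9 tested genes called. Of these 9 genes, 8 had positive fold changes, with a median of 0.27 over the list. At an unadjusted p under 0.05 in edgeR, 4 of the 9 were higher, against 6.57% of all genes. The chemokine Ccl21a, with a fold change of 0.00, lay at 148 to 159 CPM with CD fathers and at 147 to 156 CPM with LPD fathers. The parts of these cell types in the F1 class II values were not tested.

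**Figure D5:**
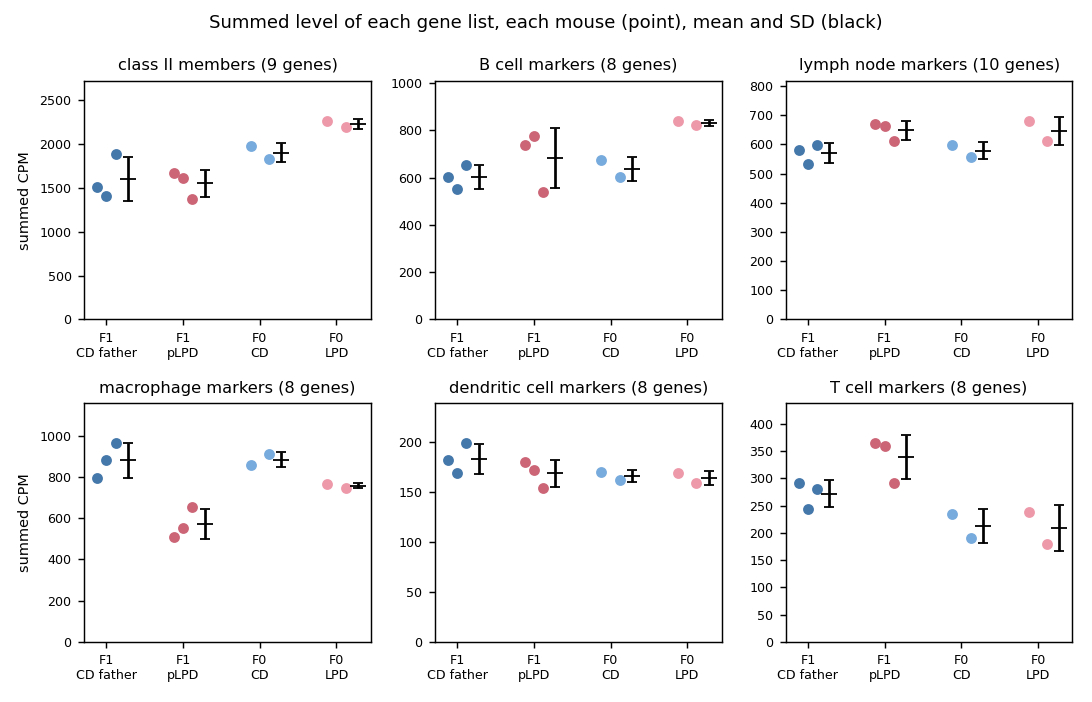
Summed CPM of the class II members and of 5 lists of cell type markers in each mouse; each point is 1 mouse and the black bar gives the mean and SD of the group. In F0 the class II and B cell sums are both higher with the LPD, and in F1 the macrophage sum is lower in pLPD offspring while the class II sums overlap.

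Genes with the pattern most like that of the class II chains were sought over the 10 libraries. The pattern was the mean of H2-Aa, H2-Ab1, H2-Eb1 and Cd74 in log2(CPM + 0.5), relative to the mean of each generation, and likeness was the root-mean-square distance over 14560 genes. The 8 nearest genes were Acss1 (0.0521), Lyn (0.0610), Znrf2 (0.0633), Tbc1d14 (0.0646), 2410006H16Rik (0.0653), Amn1 (0.0680), Parp8 (0.0689) and Csnk1g3 (0.0696), against a median distance of 0.229 over all genes compared. Lyn, a kinase of B cell and myeloid signaling, was at 83.3 to 91.1 CPM in the CD-fed and 98.1 to 99.2 CPM in the LPD-fed F0 mice. Over the 6 F1 libraries alone 0 of these 8 genes stayed among the nearest 8.

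The members that were not used for the pattern lay at differing distances from it. H2-DMb1 was at 0.125, Cd86 at 0.145, Ciita at 0.148 and H2-DMa at 0.150, whereas H2-Oa was at 0.243, farther than the median gene. The distance counts the size of changes as well as their shape, so a nearly flat gene can lie as close. Jak1, at 337 to 367 CPM over the 10 libraries, was at 0.139. The distances of Cd86, Ciita and H2-DMa thus do not show that they followed the pattern. Of the other class II genes, H2-Eb2 was at 0.0951, H2-DMb2 at 0.105 and H2-Ob at 0.166. March1, listed above, was at 0.0826. Genes with more reads have less counting error and hence can lie closer, and H2-Oa had 43 to 139 exon reads per library.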

How the data were processed

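Total RNA of iWAT was depleted of rRNA and made into strand-specific libraries, which were sequenced with paired-end reads. Mapping to mm10 was done by the authors with CLC Genomics Workbench 9.5.1, who deposited, for each library, counts of total and unique reads on exons and introns of each gene, with no normalization, and RPKM values computed from the exon counts. How reads matching several places were assigned, and whether counting used strand, is not given in the sources used here. The members and lists were chosen with earlier results of these data known.

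Total exon counts were tested with edgeR 4.0.16 (quasi-likelihood test, two-sided, filterByExpr, TMM, Benjamini-Hochberg adjustment over all genes tested, threshold 0.05), in R 4.3.3: F1 and F0 each in a fit of its own groups, and the difference between diet effects and the generation comparison in a fit of all 10 libraries. SE is the fold change divided by the root of its F statistic. CPM are exon reads per 1000000 after TMM over the 10 libraries. The script was tested on simulated data. Alternatives were DESeq2 1.42.0, DESeq2 size factors, other filters, unique reads, all reads of the gene with introns, limma 3.58.1 on log2(RPKM + 0.1), all groups in 1 fit, a replicate block, and leaving out each library; the intron share covariate and the fit of the 5 control libraries were added after seeing the data. Separate mice are given by the labels as replicates, and no replicate number is tied to a shared litter or day. Genes were named if they were members, passed the threshold in a list in the F1, F0 or interaction comparison, were the 2 genes of highest mean CPM in a list with none, or had 1 of the 8 nearest profiles; 2 genes so chosen are not reported here. H2-DMb2, H2-Eb2, H2-Ea-ps, Ifng, Cd68, H2-K1, Tap1 and the repeat of March1 were named after their values were seen. Intervals cover spread between mice, and the read floor covers counting error only. Promoter windows came from RefSeq, and H2-Ab1, Cd74, Ciita and Cd86 had none.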

Additional observations from a re-analysis of the deposited data

Results flagged for a closer look

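Adgre1, which encodes the macrophage surface protein F4/80, was singled out because its diet effect differed between the generations by a test of the difference itself. The effect in F1 minus that in F0 was -0.70 on the log2 scale (SE 0.14, edgeR, adjusted p = 0.0353). It was at 34.4, 36.1 and 34.7 CPM in the offspring of CD fathers and at 21.9, 22.1 and 23.2 CPM in pLPD offspring, and at 31.6 and 29.6 CPM in CD-fed and 30.4 and 32.9 CPM in LPD-fed F0 mice. The adjusted p was 0.0517 with DESeq2, 0.0692 with limma on RPKM and 0.0602 with a replicate block, and it passed 0.05 in only 3 of the 10 fits that left out 1 library (without offspring 3 of a CD father, pLPD offspring 1 or pLPD offspring 3).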

How the results depend on the processing

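In F1 and for the difference between generations, 0 of 9 members were called under every alternative. In F0 the count became 1 (H2-Aa) with no filter and 1 with the replicate block, and stayed 0 without each library. On the CD between generations, the count of 1 became 0 on gene reads with introns, 0 on RPKM and 0 with the 5 control libraries alone, and ran from 0 to 2 without 1 library. The cause was not tested. Replicate numbers did not pair the mice (same-number correlations 0.04, -0.00 and 0.01 in F1 and 0.05 in F0), and the replicate block took the calls over all genes from 164 to 260 in F1 and from 364 to 1391 in F0.

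Signs turned as follows. In F1, RPKM gave -0.084 for H2-Aa and -0.041 for H2-Oa, on a scale whose median over all genes was -0.15. The intron share covariate gave -0.15 for H2-Aa, 0.15 for H2-DMb1 and -0.20 for H2-Oa, and gene reads gave 0.028 for Cd86. For the difference, Ciita was -0.022 on gene reads and -0.0045 on RPKM. Between generations, gene reads gave 0.0014 for H2-Ab1 and 0.031 for H2-DMb1, unique reads 0.034 for H2-DMb1, and RPKM (median -0.12) -0.032 for H2-Eb1 and -0.11 for Cd86.

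Without 1 library, F1 values ran from -0.17 to 0.028 (H2-Eb1), -0.15 to 0.054 (H2-DMb1), -0.093 to 0.46 (H2-Oa), -0.16 to 0.092 (Cd74) and -0.23 to 0.11 (Cd86). F0 values ran from -0.042 to 0.31 (Ciita) and -0.061 to 0.38 (Cd86), the lone mouse being assumed to vary like the others. Differences ran from -0.44 to 0.11 (H2-Oa) and -0.075 to 0.26 (Ciita). Generation values ran from -0.11 to 0.067 (H2-Ab1), -0.030 to 0.18 (H2-Eb1), -0.19 to 0.092 (H2-DMa), -0.10 to 0.0075 (H2-DMb1), -0.25 to 0.10 (Ciita) and -0.18 to 0.15 (Cd86). The values under all alternatives were also counted over the members together with the list genes called in the F1, F0 or interaction comparison. Of these values, 621 kept side and direction, 87 kept the direction without the call, 3 gained a call and 40 changed sign.

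Calls over all genes ran from 11 to 798 in F1 (main 164), 82 to 1391 in F0 (main 364) and 19 to 890 for the difference (main 189). RPKM gave 2 higher and 115 lower in F1 (main 20 and 144), 30 and 52 in F0 (main 172 and 192), and 9 and 65 for the difference (main 54 and 135). With 2 or 3 mice a group, the F1 intervals still allow changes such as 0.33 for H2-Aa or 0.83 for H2-Oa.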
